A study of Mus musculus with 44 samples.

Results

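Sox2, Sox21, Nkx6-3, Pdx1 and Foxq1, genes for transcription factors of the gastric epithelium, were followed across all 20 RNA-seq libraries of mouse organoids in this series. They were taken by name and are 5 of the 19733 gene symbols in the count table. All 5 passed the filter on low counts in both experiments. All organoids were of the C57BL/6 strain. In the first experiment, 2 libraries came from small intestine organoids and 9 from isogenic gastric organoid lines transduced with lentivirus for CDX2 (3 libraries), HNF4A (3) or the neutral protein GFP (3). Both CDX2 and HNF4A regulate genes of intestinal epithelial cells. In the second experiment, all 9 libraries came from stomach antrum organoids that overexpressed HNF4A. These were homozygous (3), heterozygous (3) or wild type (3) for a germline deletion, made with CRISPR-Cas9, of an enhancer 3' of Cdx2. A deletion group thus carries both HNF4A and the missing enhancer, and its wild-type counterpart also overexpresses HNF4A. The experiments were kept apart throughout.

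The stomach and the intestine arise from adjacent parts of the gut tube, and each keeps its identity through its own set of transcription factors. SOX2 is a DNA-binding protein of the SOX family that marks the foregut and the adult stomach and is absent from normal intestinal epithelium. SOX21 is a related SOX protein. NKX6-3 is a homeodomain factor of the distal stomach that in mice is needed for gastrin-producing cells. PDX1 is a homeodomain factor shared by the gastric antrum, the duodenum and the pancreas, and FOXQ1 is a forkhead factor that in mice is needed for expression of the mucin gene Muc5ac in gastric surface cells. Intestinal metaplasia of the stomach is the change of gastric into intestine-like epithelium, and CDX2 is a standard marker of it.

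Sox2 lies on chromosome 3 at 34649995 to 34652461, Sox21 on chromosome 14 at 118233233 to 118237030, and Nkx6-3 on chromosome 8 at 23153271 to 23158948 (RefSeq, GRCm38.p6, equivalent to mm10). Foxq1 lies on chromosome 13 at 31558170 to 31560976. Pdx1 lies on chromosome 5 at 147270097 to 147275848, beside Cdx2 at 147300900 to 147307249, with 25.1 kb and 0 annotated protein-coding genes between them. RefSeq promoter sequence was matched for 3 of the 5 genes, Sox2, Sox21 and Pdx1. The 250 bases before each gene's start are printed 5' to 3' on the gene's strand, since the experiment adds a CDX or an HNF4 factor to cells that express these genes, and since SOX2 is itself a member. Capitals mark a CDX core (TTTAT), an HNF4 site core (CAAAGT) and a SOX core (ACAAAG), each searched on both strands. The HNF4 and SOX letters overlap in the run CAAAG.
Sox2, chr3:34649745-34649994, plus strand: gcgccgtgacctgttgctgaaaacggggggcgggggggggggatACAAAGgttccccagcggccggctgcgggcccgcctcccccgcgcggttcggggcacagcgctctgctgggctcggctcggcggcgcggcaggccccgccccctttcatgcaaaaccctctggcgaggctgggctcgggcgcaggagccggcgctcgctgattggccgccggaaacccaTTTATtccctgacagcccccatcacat
Sox21, chr14:118237031-118237280, minus strand: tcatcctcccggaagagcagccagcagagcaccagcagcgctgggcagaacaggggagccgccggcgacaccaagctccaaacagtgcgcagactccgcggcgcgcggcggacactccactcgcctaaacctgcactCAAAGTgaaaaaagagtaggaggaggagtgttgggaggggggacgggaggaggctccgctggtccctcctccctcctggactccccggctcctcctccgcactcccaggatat
Pdx1, chr5:147269847-147270096, plus strand: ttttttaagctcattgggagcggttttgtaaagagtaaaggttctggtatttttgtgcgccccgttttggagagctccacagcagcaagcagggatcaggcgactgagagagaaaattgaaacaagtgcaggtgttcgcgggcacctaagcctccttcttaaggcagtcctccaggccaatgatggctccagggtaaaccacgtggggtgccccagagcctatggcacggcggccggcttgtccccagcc
The Sox2 window holds 1 CDX core at 27 to 23 bases before the start and 1 SOX core at 206 to 201 bases before it. The Sox21 window holds 1 HNF4 site core at 113 to 108 bases before the start, and the Pdx1 window holds none of these letters. Of 32851 promoter windows of the same length, 37.3% hold the CDX core, 12.6% the HNF4 site core and 16.5% the SOX core. The windows are 72.0%, 65.2% and 54.8% G or C for Sox2, Sox21 and Pdx1, and the median of all windows is 52.4%. These matches describe letters only.

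Total counts per library ran from 6180498 to 11465309. Values below are CPM, counts scaled to library size with TMM factors within an experiment. Before TMM scaling, 3 counts correspond to 0.262 to 0.485 CPM in a single library. The labels of the lentiviral libraries name gastric organoids in the title and the tissue field and small intestine organoids in another field. Sox2 had 0 counts in both small intestine libraries and was at 17.7 to 116 CPM in those 9 libraries. As Sox2 is itself a member, these values are no separate check of the labels. The gastric claudin gene Cldn18 averaged 0.946 CPM in small intestine organoids and 422, 789 and 738 CPM in CDX2, HNF4A and GFP lines. Atp4b, which marks parietal cells, was at 0 to 0.201 CPM in the first experiment. The 4 listed parietal and chief cell genes, Atp4b among them, summed to 8.84 to 465 CPM in CDX2 and 153 to 969 CPM in HNF4A lines. They summed to 102 to 1189 CPM in GFP lines and 1.49 to 5.05 CPM in small intestine organoids. All 6 listed pancreas markers were at 0 counts in the first experiment. Cdx2 was at 200, 288 and 62.0 CPM in CDX2 lines 1, 2 and 3, against 3.95, 7.44 and 3.18 CPM in GFP lines. Hnf4a averaged 397 ± 107 CPM in HNF4A lines and 129 ± 31.4 CPM in GFP lines (SD, n = 3 each). Cdx2 was also at 50.6, 29.1 and 22.6 CPM in HNF4A lines, and Hnf4a at 440, 197 and 186 CPM in CDX2 lines. With line number in the fit, both were called higher than in GFP lines (edgeR adjusted p = 0.0237 and 0.0113). Without it neither was called, and nor was Hnf4a in HNF4A against GFP lines. With it Hnf4a was called there (log2 fold change 1.62, edgeR adjusted p = 0.00672). Reads of a transgene and of the endogenous gene cannot be told apart in these counts. In bulk organoids, fewer cells of a type and less RNA per cell cannot be told apart either.

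Sox2 and Nkx6-3 showed the greatest differences among the 5 between small intestine organoids and the gastric lines. Sox2 had 0 counts in both small intestine libraries. It was at 59.7, 72.1 and 17.7 CPM in CDX2 lines, at 49.4, 57.1 and 29.0 CPM in HNF4A lines, and at 116, 89.9 and 43.0 CPM in GFP lines (lines 1, 2 and 3). No gastric library came near the small intestine value. Against a floor of 3 counts over the small intestine libraries, Sox2 was at least 560-fold lower than in GFP lines, at least 351-fold lower than in CDX2 lines and at least 305-fold lower than in HNF4A lines. The edgeR adjusted p-values were 0.00106, 0.00354 and 0.00323. With limma-voom the comparisons with CDX2 and HNF4A lines were not called (adjusted p = 0.083 and 0.079), and edgeR on small intestine organoids and CDX2 lines alone gave 0.052.

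Nkx6-3 had 1 count in each small intestine library. In CDX2 lines it was at 129.9, 72.2 and 65.1 CPM, in HNF4A lines at 109.5, 66.7 and 67.7 CPM, and in GFP lines at 134, 73.3 and 65.9 CPM. The lowest gastric library was thus far above both small intestine libraries. The level was 914-fold higher in GFP lines than in small intestine organoids (95% counting interval 253 to 7550), 931-fold higher in CDX2 lines (257 to 7691) and 813-fold higher in HNF4A lines (225 to 6716). The edgeR adjusted p-values were 0.000121, 0.000286 and 0.000277, and no alternative fit ended these calls (adjusted p up to 0.027).

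**Figure D1:**
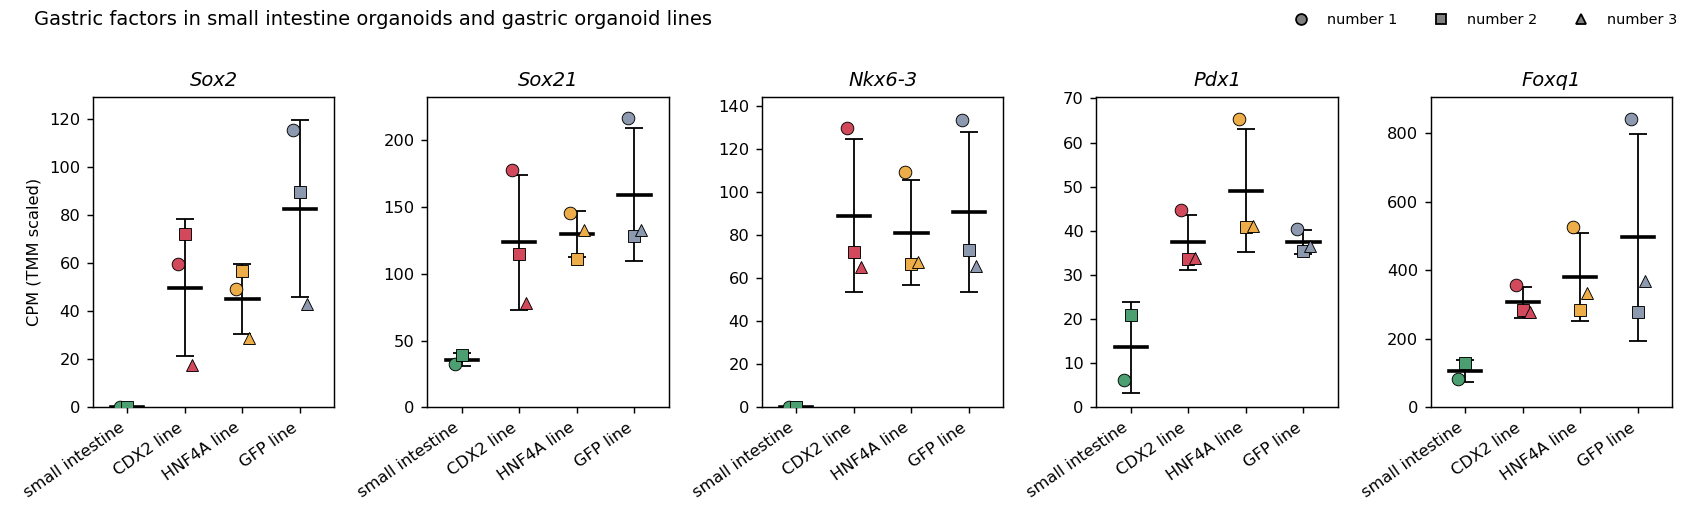
CPM (counts scaled to library size with TMM factors, linear axes from 0) of each factor in small intestine organoids (2 libraries) and in CDX2, HNF4A and GFP gastric lines (3 each). Symbols mark the library number, thick bars the mean and thin bars the SD; Sox2 and Nkx6-3 sit at or near 0 in small intestine organoids, where Sox21, Pdx1 and Foxq1 keep 35.7, 13.6 and 107 CPM on average.

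Sox21, Pdx1 and Foxq1 were lower in small intestine organoids but still measured there. Sox21 was at 32.2 and 39.3 CPM in small intestine organoids, below the lowest gastric library of the experiment (78.4 CPM, CDX2 line 3). Its log2 fold change was -2.15 ± 0.37 (SE) against GFP lines, -1.79 ± 0.36 against CDX2 lines and -1.86 ± 0.36 against HNF4A lines, with edgeR adjusted p-values of 0.00413, 0.0182 and 0.0165. Without the first small intestine library the Sox21 call was lost against CDX2 lines (adjusted p = 0.185) and against HNF4A lines (0.159) and was kept against GFP lines (0.0485). On small intestine organoids and CDX2 lines alone it was also lost (0.087).

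Foxq1 was at 83.9 and 129.8 CPM in small intestine organoids, while the 9 gastric libraries ran from 278 to 841 CPM. Its log2 fold change against GFP lines was -2.22 ± 0.49 (edgeR adjusted p = 0.0105), and it was not called without the first small intestine library (adjusted p = 0.106). Against HNF4A lines it was -1.83 ± 0.48 (adjusted p = 0.0366), and the call was lost without any 1 of the 3 HNF4A libraries or of the 2 small intestine libraries (adjusted p = 0.064 to 0.296). Against CDX2 lines Foxq1 was at -1.52 ± 0.47 and was not called (adjusted p = 0.0631), while limma-voom (0.040), DESeq2 (0.0076), the block (0.0355) and edgeR without GFP line 1 (0.030) called it.

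Pdx1 differed most between the small intestine libraries, at 6.33 CPM in the first and 20.95 CPM in the second. The gastric libraries ran from 33.6 to 65.3 CPM, so the groups did not overlap. Its log2 fold change was -1.46 ± 0.43 against GFP lines (edgeR adjusted p = 0.0325), -1.46 ± 0.43 against CDX2 lines (0.0563) and -1.85 ± 0.44 against HNF4A lines (0.0281). The calls rest on the first library. Against GFP lines Pdx1 was at -0.84 without it (adjusted p = 0.156) and at -2.56 without the second (0.00401). The Pdx1 call also ended without any 1 GFP library (adjusted p = 0.060 to 0.067) or any 1 HNF4A library (0.053 to 0.065) in the comparison with that group, and in edgeR on those groups alone (0.077 against GFP and 0.103 against HNF4A lines). Against CDX2 lines Pdx1 was called by limma-voom (adjusted p = 0.034), by DESeq2 (0.0086) and without the second small intestine library (0.0066).

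In all, 5 of 5 factors fell in small intestine organoids against GFP lines, where 12.9% of 12720 tested genes were called lower. All 5 were also lower without overlap in each of the 3 comparisons, as were 28.9%, 23.6% and 24.3% of tested genes against GFP, CDX2 and HNF4A lines. Against HNF4A lines 5 of 5 fell, with 6.64% of genes called lower, and against CDX2 lines 3 of 5 fell, with 5.67% called lower. The median log2 fold change of the 5 was -2.22, -1.86 and -1.79 in these comparisons, and it is the same with Sox2 at its bound. The median of all tested genes was -0.01, -0.03 and -0.03. The 3 comparisons share the small intestine libraries.

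Most other gastric genes that were called fell too. Among 14 listed genes of the gastric epithelium, 8 fell in small intestine organoids against GFP lines (median -5.21 with genes at 0 counts at their bound). They include the mucin genes Muc6 and Muc1, which averaged 0.266 and 0.0548 CPM in small intestine organoids and 4231 and 812 CPM in GFP lines. Of 13 tested genes among the other gastric and foregut factors, 4 fell and 2 rose (median -1.72). The mucous cell factor gene Spdef fell to 6.39 CPM in small intestine organoids, against 92.7 CPM in GFP lines (log2 fold change -3.87 ± 0.80, edgeR adjusted p = 0.00822). The homeobox gene Meis1 had 1 count in small intestine organoids and averaged 17.2 CPM in GFP lines. Nr5a2, a nuclear receptor gene also active in intestinal crypts, rose to 6.68 CPM in small intestine organoids, against 0.0354 CPM in GFP lines. Of 12 tested genes of the Sox family, 6 fell and none rose (median -1.64), Sox2 and Sox21 among them. Sox5 had 1 count in small intestine organoids and averaged 30.6 CPM in GFP lines.

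Forced CDX2 left all 5 factors expressed in the gastric lines. None was called in CDX2 against GFP lines, where 52 of 12720 genes were called (0.409%), 9 of them lower (0.0708%). None was lower without overlap, as were 7.76% of tested genes. The median log2 fold change of the 5 was -0.36, and that of all tested genes was 0.00. Sox2 averaged 49.8 ± 28.5 CPM in CDX2 lines and 82.9 ± 36.9 CPM in GFP lines (SD, n = 3 each), and the groups overlapped. Its log2 fold change was -0.73 ± 0.52 (95% interval -1.91 to 0.45, edgeR adjusted p = 0.689). Sox21 averaged 124 ± 50.4 CPM in CDX2 lines and 159 ± 49.6 CPM in GFP lines (-0.36, 95% interval -1.03 to 0.30, adjusted p = 0.739). Foxq1 was at 358, 283 and 278 CPM in CDX2 lines, against 841, 279 and 370 CPM in GFP lines (-0.70, 95% interval -1.59 to 0.19, adjusted p = 0.584). A single library, GFP line 1, stood above all others for Foxq1. Without it the Foxq1 value in this comparison was -0.08.

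Nkx6-3 and Pdx1 were at almost the same level in CDX2 and GFP lines. Nkx6-3 averaged 89.1 ± 35.5 CPM in CDX2 lines and 90.9 ± 37.2 CPM in GFP lines (log2 fold change -0.03, 95% interval -0.79 to 0.73). Pdx1 was at 44.6, 33.6 and 33.9 CPM in CDX2 lines, against 40.5, 35.4 and 36.6 CPM in GFP lines (-0.00, 95% interval -0.82 to 0.81). These intervals do not reach the differences measured in small intestine organoids for Nkx6-3, but they leave room for smaller ones.

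The line numbers pair the gastric libraries, since libraries with the same number deviated together from their group means. Within numbers, Sox2 in CDX2 lines was at 51.6%, 80.2% and 41.1% of the GFP line with the same number. Sox21 was at 82.2%, 89.3% and 59.0%, and Nkx6-3 at 97.2%, 98.5% and 98.9%. Sox2, Sox21 and Nkx6-3 were thus lower in 3 of 3 pairs, as were 21.8% of all tested genes. With line number as a block, 1188 genes were called in place of 52, 547 of them lower (4.45%), and still none of the 5. Sox2 came to -0.81 (adjusted p = 0.056) and Foxq1 to -0.54 (0.149) in that fit.

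**Figure D2:**
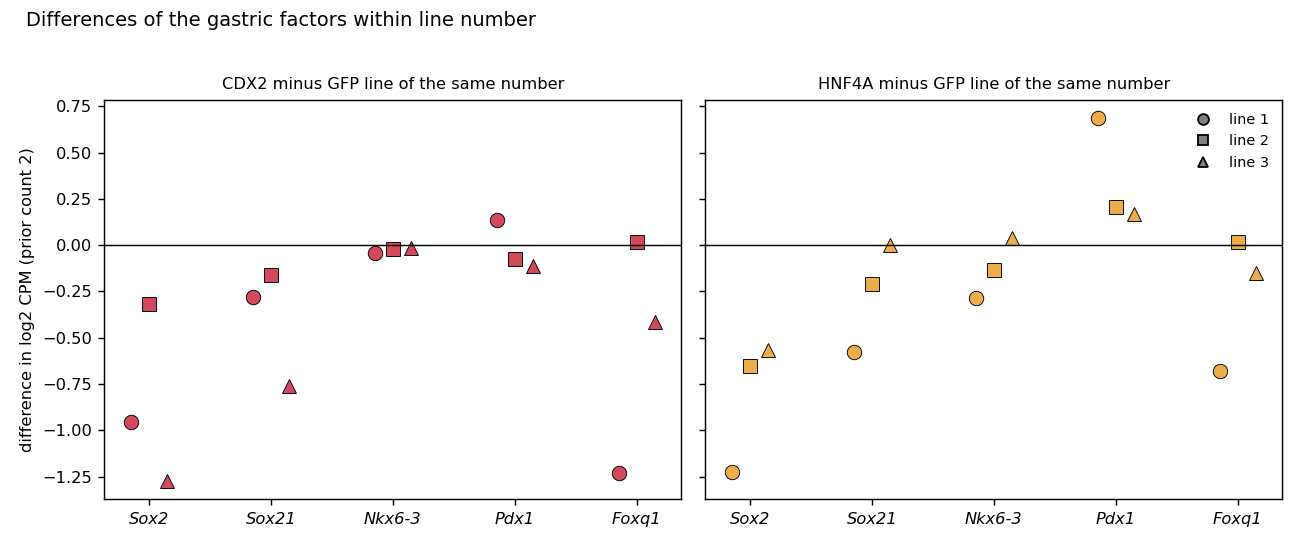
Difference in log2 CPM (prior count 2) between a CDX2 line (left) or an HNF4A line (right) and the GFP line with the same number, for each factor. Sox2 is below 0 in all 6 pairs, Nkx6-3 lies within 0.04 of 0 in the 3 CDX2 pairs, and Pdx1 is above 0 in the 3 HNF4A pairs; both panels use the same GFP libraries.

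Some other genes of the stomach were called in CDX2 lines once line number was in the fit. Sox2 was at -0.81 in the same fit and was not called. Differences between the 5 factors and these genes were not tested. Without the block, 0 of 13 tested genes among the other gastric and foregut factors were called (median -0.34) and with it 6 fell. These were Meis1 (log2 fold change -4.34), Prox1 (-3.31), Spdef (-1.66), Bhlha15 (-1.64), Foxa3 (-0.77) and Sox9 (-0.67). Spdef acts in mucous cells and Bhlha15 in secretory chief cells. Of 14 genes of the gastric epithelium, 0 were called without the block (median -1.50), and with it 5 fell, Muc6 (-5.27), Gkn3 (-2.28), Muc1 (-1.83), Ctse (-1.08) and Vsig1 (-0.93). On the intestinal side, Cdx2 and the homeobox gene Isx rose without the block, 2 of 18 tested factors, and 8 rose and 1 fell with it. Isx had 0 counts in GFP lines and was at least 664-fold higher in CDX2 lines.

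Summed markers of 2 other cell types were higher in CDX2 lines on average, with no gene of either list called. The 6 listed squamous epithelium genes summed to 67.5 to 722 CPM in CDX2 lines and 12.2 to 128 CPM in GFP lines. Krt4 made up most of that sum, at a mean of 334 CPM in CDX2 lines and 53.0 CPM in GFP lines, while the basal squamous genes Trp63, Krt5 and Krt14 averaged 0.991, 1.35 and 1.47 CPM in CDX2 lines. The 6 enteroendocrine genes summed to 47.3 to 153 CPM in CDX2 lines and 4.46 to 5.23 CPM in GFP lines, with Chgb at 72.8 CPM in CDX2 lines and 2.77 CPM in GFP lines. The squamous sums overlapped and the enteroendocrine sums did not. By edgeR 0 of 4 tested squamous and 0 of 5 tested enteroendocrine genes were called, and with the block Krt4, Chgb and Chga rose (adjusted p = 0.00164, 0.0250 and 0.0472). No gene of either list was at 0 in both groups. In small intestine organoids the squamous genes summed to 137 to 411 CPM and the enteroendocrine genes to 16.2 to 54.7 CPM. The part of either list in the values of the 5 factors was not tested.

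All 5 factors were also still expressed in the lines with forced HNF4A. None was called in HNF4A against GFP lines, where 18 of 12720 genes were called (0.142%), all of them higher. Hnf4a itself was not among these 18 genes. The GFP libraries are those of the CDX2 comparison. The median log2 fold change of the 5 was -0.30, and that of all tested genes was 0.00. Sox2 averaged 45.1 ± 14.5 CPM in HNF4A lines and 82.9 ± 36.9 CPM in GFP lines, a log2 fold change of -0.88 ± 0.52 (95% interval -2.06 to 0.31, edgeR adjusted p = 1). It was at 42.7%, 63.5% and 67.4% of the GFP line of the same number, lower in 3 of 3 pairs, as were 24.5% of tested genes. Sox21 was at -0.30 (95% interval -0.96 to 0.37), Nkx6-3 at -0.16 (-0.93 to 0.60) and Foxq1 at -0.38 (-1.27 to 0.50). Without GFP line 1, Nkx6-3 came to 0.22 and Foxq1 to 0.23. Of the other gastric and foregut factors 0 of 13 were called (median -0.23), and of 14 genes of the gastric epithelium also 0 (median -0.24). With the block 1 gene of these lists rose, the foregut and pancreas factor gene Onecut2 (2.30).

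Pdx1 was the 1 factor with a higher value. It was at 65.3, 40.9 and 41.2 CPM in HNF4A lines, against 40.5, 35.4 and 36.6 CPM in GFP lines. The groups did not overlap, though the lowest HNF4A library (40.9 CPM) and the highest GFP library (40.5 CPM) nearly met. Of all tested genes, 6.69% were higher without overlap. The log2 fold change was 0.39 ± 0.37 (95% interval -0.42 to 1.20, adjusted p = 1), and with line number as a block 0.36 (adjusted p = 0.227). Pdx1 was at 161%, 115% and 113% of the GFP line with the same number, higher in 3 of 3 pairs, as were 23.9% of tested genes. The block raised the genes called to 275, with 0.48% lower and 1.76% higher, and called none of the 5.

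Between CDX2 and HNF4A lines, 3 of 12720 genes were called (0.0236%), and none of the 5. Sox2 was at 0.15 (95% interval -1.04 to 1.33), Sox21 at -0.07, Nkx6-3 at 0.13, Pdx1 at -0.39 (-1.21 to 0.42) and Foxq1 at -0.31. Pdx1 was lower in CDX2 lines in 3 of 3 same-number pairs, as were 17.3% of tested genes. With the block, 169 genes were called and none of the 5.

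Levels within a group also differed by line number. Nkx6-3 was highest in line 1 of each gastric group, at 129.9 CPM in CDX2, 109.5 CPM in HNF4A and 134 CPM in GFP, while lines 2 and 3 lay between 65.1 and 73.3 CPM in all 3 groups. Pdx1, Foxq1 and Sox21 were highest in line 1 of each group as well. Sox2 was lowest in line 3 of each group, at 17.7, 29.0 and 43.0 CPM in CDX2, HNF4A and GFP lines. The ratio of the highest to the lowest library of a group was 4.08 for Sox2 in CDX2 lines and 3.01 for Foxq1 in GFP lines. It was 1.15 for Pdx1 in GFP lines.

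In order of mean level, GFP lines came first for Sox2, Sox21, Nkx6-3 and Foxq1, HNF4A lines first for Pdx1, and small intestine organoids last for all 5. Neighbouring gastric groups in these orders overlapped, apart from HNF4A and GFP lines for Pdx1. The levels of the 3 factors whose genes have a single exon can be set side by side per length. Foxq1 averaged 38.1 CPM per kb in small intestine organoids and 109, 136 and 177 CPM per kb in CDX2, HNF4A and GFP lines. Sox21 averaged 9.41 CPM per kb in small intestine organoids and 32.5, 34.1 and 41.9 CPM per kb in the same lines. Sox2 was at 0 in small intestine organoids and averaged 20.2, 18.3 and 33.6 CPM per kb in the lines.

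Muc5ac and Tff1, products of gastric surface cells, varied widely between libraries. In GFP lines the highest library was at 14.8 times the lowest for Muc5ac and at 142 times for Tff1. Muc5ac, the surface mucin gene, had 0 counts in small intestine organoids. It was at 0.402, 0.482 and 5.20 CPM in CDX2 lines, at 31.1, 1.25 and 0.680 CPM in HNF4A lines and at 23.6, 11.7 and 1.59 CPM in GFP lines. In small intestine organoids Muc5ac was at least 84.5-fold lower than in GFP lines and was not called (edgeR adjusted p = 0.0571). Foxq1 in the same GFP lines was at 841, 279 and 370 CPM. Tff1, a trefoil peptide gene of the same surface cells, ran from 0.279 to 5.05 CPM in small intestine organoids, from 0.402 to 14.98 CPM in CDX2 lines, from 2.58 to 377 CPM in HNF4A lines and from 0.612 to 87.1 CPM in GFP lines. The hormone genes Gast and Sst stayed at or below 1.63 and 4.82 CPM in all gastric lines. None of the 4 was called in any of the 9 comparisons, and Gast did not pass the filter in the first experiment.

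Deletion of the enhancer 3' of Cdx2 in HNF4A-overexpressing antrum organoids left the 5 factors expressed in all 9 libraries. Cdx2, the check of the deletion, was at 0.199, 1.36 and 0.585 CPM in homozygous organoids and at 18.4, 5.54 and 9.30 CPM in heterozygous organoids, against 16.7, 26.8 and 58.5 CPM in wild-type organoids (replicates 1, 2 and 3). By edgeR no gene of 12593 was called in homozygous or in heterozygous against wild-type organoids (0% each), and none of the 5. Unadjusted p was under 0.05 for 578 and 1125 genes, none and 2 of them members, DESeq2 called 180 and 327 genes and limma-voom none. The 2 members were Pdx1 and Foxq1 in heterozygous organoids. Of all tested genes, 4.59% had such a p in homozygous and 8.93% in heterozygous against wild-type organoids. Homozygous against heterozygous organoids gave 0 calls by edgeR (0%), 33 unadjusted, 1 by DESeq2 and 0 by limma-voom.

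Pdx1 and Foxq1 had the lowest relative values in heterozygous organoids. Pdx1 was at 44.7, 38.9 and 27.0 CPM in homozygous and at 37.1, 27.9 and 22.9 CPM in heterozygous organoids, against 38.7, 46.1 and 61.0 CPM in wild-type organoids. Heterozygous and wild-type libraries did not overlap, and homozygous and wild-type libraries did. Pdx1 was at -0.73 ± 0.26 in heterozygous against wild-type organoids (95% interval -1.31 to -0.14, unadjusted p = 0.0203, edgeR adjusted p = 0.488) and at -0.40 ± 0.26 in homozygous against wild-type organoids (95% interval -0.98 to 0.19, adjusted p = 0.999). Foxq1 was at 520.0, 347 and 198 CPM in homozygous and at 312, 243 and 254 CPM in heterozygous organoids, against 410.1, 488 and 468 CPM in wild-type organoids. Again only the heterozygous libraries were clear of the wild-type ones, at -0.76 ± 0.30 (95% interval -1.43 to -0.08, unadjusted p = 0.0313, adjusted p = 0.527). In homozygous against wild-type organoids it was -0.36 ± 0.30 (adjusted p = 0.999). Pdx1 in heterozygous organoids was at 95.9%, 60.6% and 37.5% of the wild-type library with the same number and Foxq1 at 76.2%, 49.7% and 54.2%, lower in 3 of 3 pairs, as were 11.1% of tested genes, though these numbers do not pair the libraries. Lower values without overlap occurred for 6.15% of tested genes in heterozygous and 4.15% in homozygous against wild-type organoids.

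Nkx6-3, Sox2 and Sox21 overlapped between all genotypes. Nkx6-3 was at 77.2, 57.5 and 53.3 CPM in homozygous and at 70.1, 53.3 and 50.9 CPM in heterozygous organoids, against 68.3, 76.7 and 90.5 CPM in wild-type organoids. Its log2 fold change was -0.32 ± 0.20 in homozygous and -0.43 ± 0.20 in heterozygous against wild-type organoids (adjusted p = 0.999 and 0.560). Sox2 averaged 61.5 ± 23.4 CPM in homozygous, 51.0 ± 7.71 CPM in heterozygous and 65.5 ± 22.9 CPM in wild-type organoids (SD, n = 3 each). Sox21 averaged 112 ± 31.2, 98.6 ± 12.5 and 114 ± 15.7 CPM in the same order of genotypes. The 95% intervals against wild type were -0.81 to 0.63 for Sox2 and -0.52 to 0.46 for Sox21 in homozygous organoids, and -1.08 to 0.36 and -0.71 to 0.28 in heterozygous organoids. None of 11 tested genes among the other gastric and foregut factors was called in either comparison. The median of the 5 was -0.32 in homozygous and -0.43 in heterozygous organoids, with 0.00 for all tested genes in both.

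Between the deletion genotypes, all 5 values were higher in homozygous organoids, from 0.11 for Nkx6-3 to 0.40 for Foxq1, with edgeR adjusted p = 1 for each. The median of all tested genes was -0.01. Here the replicate numbers were taken as pairing the libraries, which is uncertain. Heterozygous replicate 2 correlated at 0.188 with homozygous replicate 2 and at 0.213 with homozygous replicate 3. Pdx1 in homozygous organoids was at 120%, 139% and 118% of the heterozygous library with the same number, and Nkx6-3 at 110%, 108% and 105%. Both were higher in 3 of 3 pairs, as were 6.92% of tested genes, and no gene was called with the block.

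**Figure D3:**
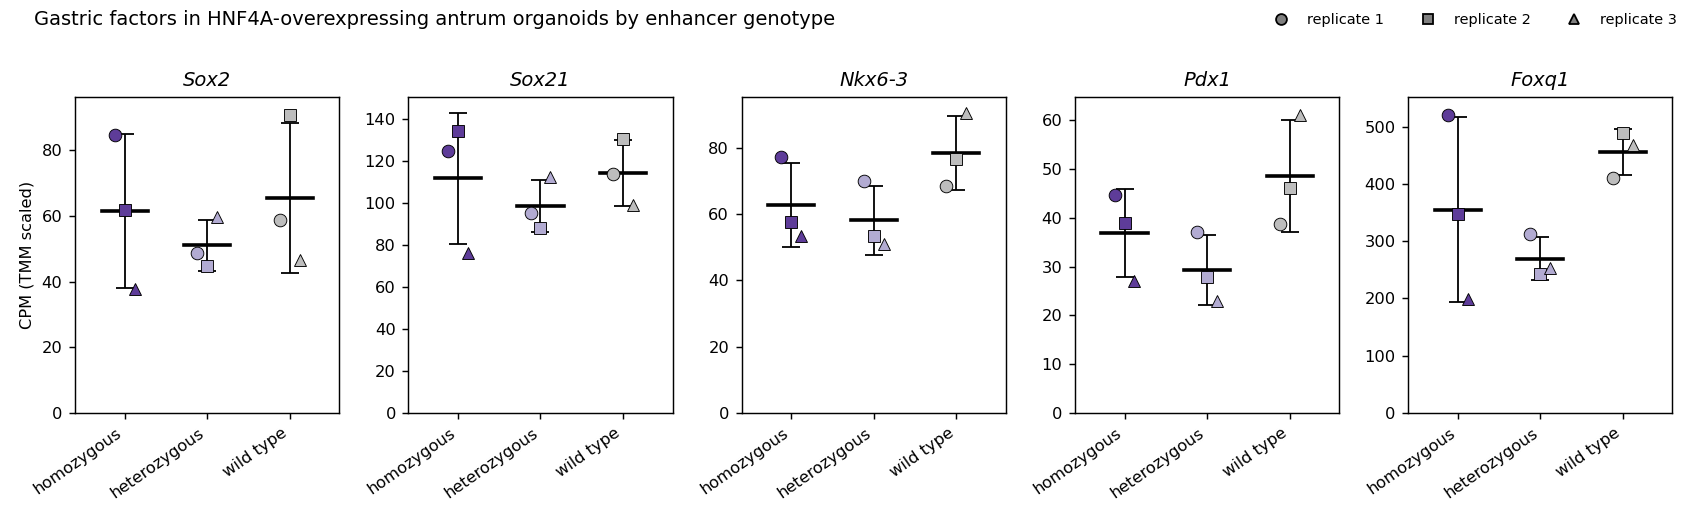
CPM (counts scaled to library size with TMM factors, linear axes from 0) of each factor in homozygous, heterozygous and wild-type antrum organoids that overexpress HNF4A (3 libraries each). Symbols mark the replicate number, thick bars the mean and thin bars the SD; heterozygous and wild-type libraries are apart for Pdx1 (37.1 against 38.7 CPM at the closest) and for Foxq1 (312 against 410.1 CPM) and overlap for the others.

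Fibroblast transcripts were at higher levels in the deletion genotypes than in wild type, with no gene called without the block. With it Col6a3, Sparc, Pdgfrb and Col1a1 rose in heterozygous against wild-type organoids (edgeR adjusted p = 0.0119 to 0.0334). Replicate numbers do not pair those libraries, and none of the list was called in homozygous against wild-type organoids. The 12 listed fibroblast genes summed to 37.6, 101 and 1097 CPM in homozygous and to 102, 847 and 1297 CPM in heterozygous organoids, against 6.20, 6.73 and 3.31 CPM in wild-type organoids, with Lum at 0 throughout. The 4 endothelial genes summed to 3.02 to 29.1 CPM in homozygous, 3.88 to 41.3 CPM in heterozygous and 0.636 to 1.71 CPM in wild-type organoids. The library of homozygous replicate 3, at 1097 CPM, was also the lowest homozygous one for all 5 factors. Heterozygous replicate 3, at 1297 CPM, was the lowest heterozygous library for Nkx6-3 and Pdx1 but the highest for Sox2 (59.6 CPM) and Sox21 (112 CPM). Leaving out the 3 libraries richest in these transcripts kept homozygous replicates 1 and 2 but only replicate 1 of the heterozygous group. In that fit Pdx1 was at -0.39 and Foxq1 at -0.55 in the single heterozygous library against wild-type organoids. In homozygous against wild-type organoids Pdx1 and Foxq1 were at -0.21 and -0.07. Sox2 and Sox21 were then at 0.17 and 0.18 in homozygous organoids. The part of these transcripts in the values of the 5 factors was not tested beyond that.

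Pdx1 and Cdx2 are neighbours on chromosome 5. Neither was called in the deletion genotypes, and the difference between their values was not tested. In homozygous organoids Cdx2 was at -5.53 ± 0.79 (edgeR adjusted p = 0.377) and Pdx1 at -0.40 ± 0.26 (0.999) relative to wild type. In heterozygous organoids Cdx2 was at -1.62 ± 0.62 (0.511) and Pdx1 at -0.73 ± 0.26 (0.488). In wild-type organoids the library with the most Cdx2 (58.5 CPM, replicate 3) also had the most Pdx1 (61.0 CPM) and Nkx6-3 (90.5 CPM). The same library had the least Sox2 (46.7 CPM) and Sox21 (99.2 CPM), and Foxq1 was highest in replicate 2 (488 CPM). These orders were noticed in the values and were not tested. In small intestine organoids Cdx2 averaged 277 CPM and Pdx1 13.6 CPM, and in CDX2 lines Cdx2 averaged 183 ± 114 CPM and Pdx1 37.4 ± 6.26 CPM (SD, n = 3).

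**Figure D4:**
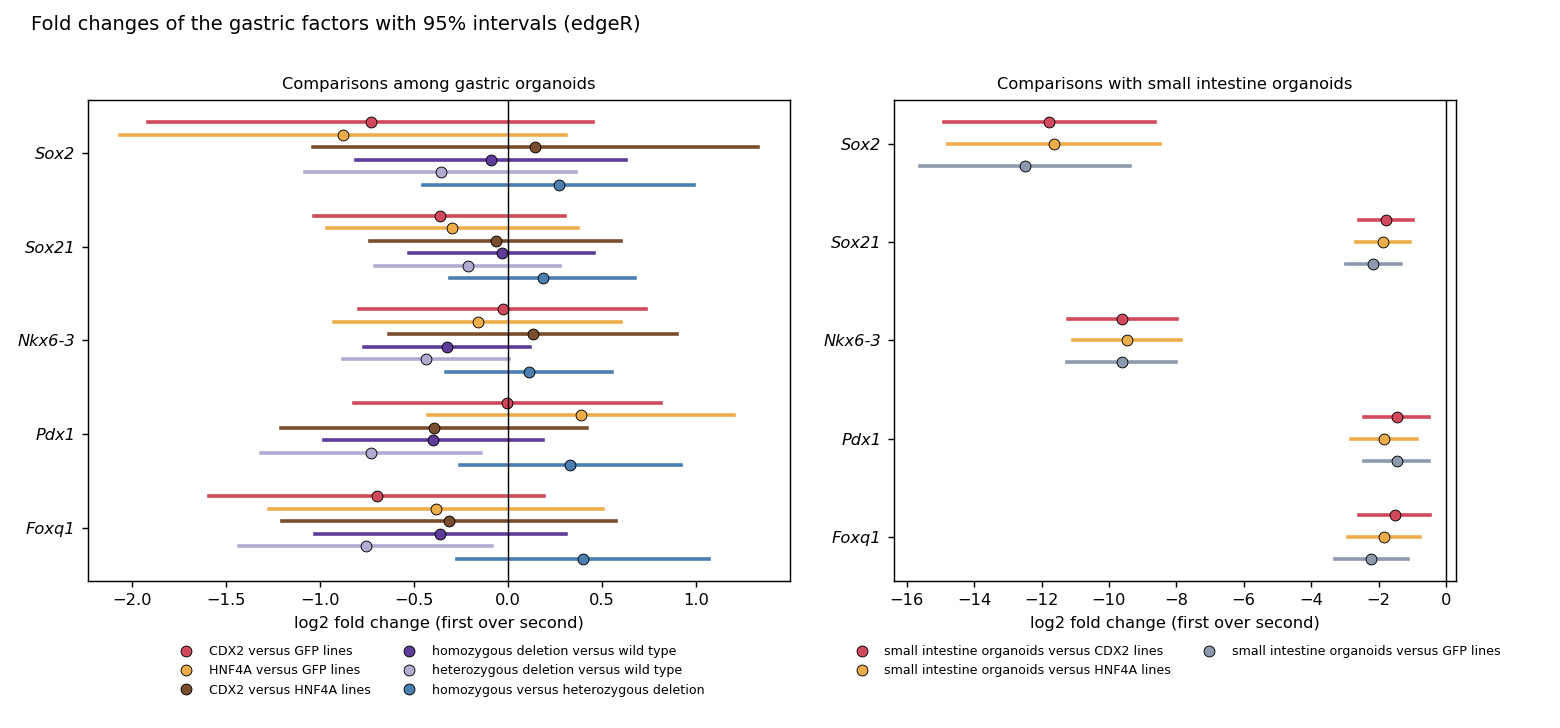
Log2 fold change (first group over second) of each factor with its 95% interval from edgeR, for the 6 comparisons among gastric organoids (left) and the 3 with small intestine organoids (right). All intervals on the left include 0 except those of Pdx1 and Foxq1 in heterozygous against wild-type organoids, neither of which passed adjustment; on the right, the fitted Sox2 and Nkx6-3 values rest on 0 and 2 small intestine counts and depend on the prior count.

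The genes most like each factor were found by the root mean square difference of centred log2 CPM (prior count 2) over all libraries of an experiment. Over the 11 libraries of the first experiment, Sox2 and Nkx6-3 were each other's nearest gene (0.60), of 12720. Both had 0 or 1 counts in the small intestine libraries, so this distance depends on the prior count. Their own root mean square deviation was 3.10 each, against 0.81 to 0.85 for the other factors. The next nearest to Sox2 were Gna14 (0.65) and Ank1 (0.82), and to Nkx6-3 Ank1 (0.64) and Vsig2 (0.79). Ank1 ends 2.77 kb before Nkx6-3 starts on chromosome 8 and averaged 0.241 CPM in small intestine organoids and 46.0, 46.0 and 62.2 CPM in CDX2, HNF4A and GFP lines. Sox21 was nearest to Tap2 (0.21) and Foxq1 (0.30), Foxq1 to Cd14 (0.29) and Sox21 (0.30), and Pdx1 to Iqgap2 (0.26). Over the 9 libraries of the second experiment the nearest genes were others, Ccrl2 for Sox2 (0.10), Akr7a5 for Sox21 (0.07), Cx3cl1 for Nkx6-3 (0.07), Mgat4a for Pdx1 (0.10) and Decr1 for Foxq1 (0.11). There Sox2 ranked 6403 in likeness to Nkx6-3, and Pdx1 ranked 464. These distances describe the libraries and share their scaling.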

How the data were processed

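Poly-A RNA-seq libraries of mouse organoids (150 bp paired reads, per the labels' protocols) were analysed; other assays of the series were not used here. Values are the deposited raw counts per gene symbol, for which the table's name gives STAR. The build mm10, per the submitters' processing notes, applies to the enhancer libraries, and for the others Bowtie2, Cell Ranger and hg19 are named too, without a role. Counting program, strand setting and annotation were not given in the sources used here. The noncoding RNA genes Sox2ot, Gm4675 and Plut overlap Sox2, Sox21 and Pdx1, in that order. How the counting assigned reads in these overlaps was not given either. As reads have no molecular identifiers, floors and intervals on counts hold counting error alone.

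Each experiment was fitted as a whole in edgeR 4.0.16 (R 4.3.3; quasi-likelihood, robust, TMM, two-sided) after filterByExpr (minimum count 10, minimum total 15), which left 12720 and 12593 genes. Called means a Benjamini-Hochberg adjusted p under 0.05 over all of these, and adjusted p-values without a tool are edgeR's. SE is the log2 fold change over the square root of F, and 95% intervals use the fit's degrees of freedom. DESeq2 1.42.0, limma-voom (limma 3.58.1), other scalings and filters, a replicate block and leaving out libraries were alternatives. The script was tested on simulated counts. No pair of replicates agreed within sampling noise (chi-square per degree of freedom 21.7 to 84.1).

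Deviations from group means correlated at 0.336 to 0.751 in the 9 same-number pairs of gastric libraries and at 0.188 to 0.530 in the 3 pairs of heterozygous and homozygous libraries, so these numbers were taken as pairing. Pairs with small intestine (-0.0881 to 0.118) and with wild-type antrum libraries (-0.290 to 0.244) were not. The pairing of heterozygous and homozygous libraries is uncertain, since heterozygous replicate 2 correlated at 0.213 with homozygous replicate 3. Wild-type replicate 1 and heterozygous replicate 2 correlated at 0.417 despite their different numbers. The labels name no separate animals or cultures beyond the line and replicate numbers, so p-values measure the spread between these libraries, which may be technical.

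The members and the 17 gene lists (143 symbols, 142 in the table) were chosen with earlier results of these data known. Named genes are the 5 factors, Cdx2 and Hnf4a, the products Muc5ac, Gast, Sst and Tff1, up to 4 called genes per list and comparison with the largest fold changes, and the 3 genes most like each factor. Genes called with the block, the genes that make up a marker sum and Sox2ot were named after their values were seen. Gm4675 and Plut are named for their position.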

Additional observations from a re-analysis of the deposited data

How the results depend on the processing

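Over 45 fold changes (5 factors in 9 comparisons), 739 of 795 alternative values kept direction and side of the threshold, 22 lost a call, 7 gained one and 27 changed sign. All sign changes were in values that were not called. Apart from leaving out libraries, Pdx1 in CDX2 against GFP lines turned to 0.0036 with no low-count filter and to 0.0021 on those groups alone, and Sox21 in homozygous against wild-type organoids to 0.019 with total-count scaling. Without the 3 fibroblast-rich libraries, only replicate 1 was left in the heterozygous group. Nkx6-3 in homozygous against heterozygous organoids then turned to -0.050, and Sox2 and Sox21 in homozygous against wild-type organoids to 0.17 and 0.18. Leaving out 1 library at a time gave these ranges. In CDX2 against GFP lines they were -0.40 to 0.36 for Nkx6-3 and -0.15 to 0.068 for Pdx1. In HNF4A against GFP lines they were -0.44 to 0.22 for Nkx6-3 and -0.69 to 0.23 for Foxq1. In CDX2 against HNF4A lines they were -0.22 to 0.55 for Sox2, -0.42 to 0.17 for Sox21 and -0.24 to 0.41 for Nkx6-3. In homozygous against wild-type organoids they were -0.40 to 0.23 for Sox2 and -0.18 to 0.18 for Sox21, and against heterozygous organoids -0.020 to 0.54 for Sox2 and -0.056 to 0.26 for Nkx6-3. The factors called in small intestine organoids numbered 3 to 5 against GFP lines and 2 to 5 against HNF4A lines when 1 library was left out. Against CDX2 lines 5 were called by DESeq2 and 1 on those groups alone, in place of 3. With the replicate block 4 were called against CDX2 lines, Foxq1 among them (adjusted p = 0.0355), though small intestine numbers did not pair. The block changed no other call of the factors. It moved the genes called from 1437 to 2942 against CDX2 lines and from 1585 to 3061 against HNF4A lines, and from 0 to 5 and 51 in homozygous and heterozygous against wild-type organoids. DESeq2 called 493, 221 and 139 genes and limma-voom 4, 5 and 2 in CDX2 against GFP, HNF4A against GFP and CDX2 against HNF4A lines. On those groups alone the genes called were 14, 13 and 0, and 70 and 559 in small intestine organoids against CDX2 and HNF4A lines, where DESeq2 called 2675 and 2791. Leaving out 1 library gave 11 to 107, 4 to 38 and 0 to 8 genes in the gastric comparisons, and 833 to 3619, 103 to 1401 and 142 to 1707 in small intestine organoids against GFP, CDX2 and HNF4A lines. The cause was not tested. In small intestine organoids, n = 2 and counts of 0 or 1 limit how far Sox2 and Nkx6-3 can be measured.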

Other observations

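Sox2ot is a long noncoding RNA gene that overlaps Sox2. It had 3, 5 and 19 counts in CDX2 lines 1, 2 and 3, 5, 10 and 59 counts in HNF4A lines and 15, 18 and 68 counts in GFP lines. Sox2ot was thus highest in line 3 of each group, where Sox2 was lowest, at 17.7, 29.0 and 43.0 CPM. Lines 1 and 2 did not show that opposition in CDX2 and HNF4A lines, where both genes were higher in line 2. Both small intestine libraries had 0 counts of Sox2ot and of Sox2. In the second experiment Sox2ot had 14, 5 and 11 counts in homozygous, 9, 8 and 7 counts in heterozygous and 12, 13 and 6 counts in wild-type organoids. The pattern was noticed in these values and was not tested.

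CDX2 line 3 held the least Cdx2 of the CDX2 lines, 62.0 CPM against 200 and 288 CPM in lines 1 and 2. It was also the line where Sox2 and Sox21 were lowest relative to the GFP line with the same number, at 41.1% and 59.0%. In the small intestine organoids the first library had 6.33 CPM of Pdx1 and the second 20.95 CPM, while Cdx2 was at 282 and 272 CPM and Sox21 at 32.2 and 39.3 CPM.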
